A study of Mus musculus with 36 samples.

Results

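The 10 genes described here encode the enzymes that turn arachidonic acid into prostaglandins, thromboxane and leukotrienes. They were taken by symbol from 27562 genes with FPKM values, and all 10 were found. FPKM is a level of mapped fragments already scaled for transcript length and sequencing depth, so levels of different genes can be compared. RNA was sequenced from alveolar macrophages (AΦ) and monocytes sorted from the lungs of male chimeric mice that breathed filtered air (FA) or concentrated ambient PM2.5, fine airborne particles, for 4-weeks or 32-weeks. There were 36 libraries in 12 groups of 3. The paper states that 3 mice were chosen per exposure and time. Libraries of different cells may therefore come from the same mice.

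All hosts were C57BL/6J mice carrying CD45.2 that were irradiated with the chest shielded by lead, given busulfan and transplanted with marrow of B6.SJL-Ptprca Pepcb/BoyJ donors carrying CD45.1. The FA groups therefore also carry irradiation, busulfan and donor marrow. At 4-weeks the groups were CD45.2 tissue-resident AΦ (TR-AΦ) and CD45.2 monocytes, each from FA and PM2.5 exposed mice. At 32-weeks the groups were TR-AΦ, CD45.1 bone marrow-derived AΦ (BM-AΦ), CD45.1 monocytes and CD45.2 monocytes, each again from FA and PM2.5 exposed mice. The labels of monocytes at 32-weeks hold only the digits 1 and 2. These were taken to mean CD45.1 and CD45.2, as the supplement explains them for AΦ, which is an inference. AΦ were gated as CD64+ CD11c high CD11b low and monocytes as Ly6G- MHC II- CD64 low CD11b high, so CD11b and CD11c separate the 2 cell types by design. CD45.2 cells are those that shielding and conditioning left in the host. Age rises with exposure time, so time and age cannot be told apart.

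Prostanoid synthesis starts when phospholipases free arachidonic acid from membranes. The cyclooxygenases, encoded by Ptgs1 and Ptgs2, make prostaglandin H2, and terminal synthases convert it to prostaglandin E2, prostaglandin D2 or thromboxane A2. In the other branch 5-lipoxygenase and its activating protein make leukotriene A4, which is converted to leukotriene B4, a neutrophil attractant, or to leukotriene C4, the first cysteinyl leukotriene. Alveolar macrophages are known as a source of leukotrienes, and Ptgs2 is known as the inducible cyclooxygenase of activated myeloid cells.

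The cyclooxygenase genes are Ptgs1, the constitutive form, at chr2:36230426-36252272 on the plus strand of GRCm38, and Ptgs2 at chr1:150100031-150108227 on the plus strand. The terminal prostanoid synthase genes are Ptges (prostaglandin E synthase, chr2:30889471-30929863, minus strand), Hpgds (hematopoietic prostaglandin D synthase, chr6:65117293-65144908, minus strand) and Tbxas1 (thromboxane A synthase, chr6:38875404-39084585, plus strand). The leukotriene genes are Alox5 (5-lipoxygenase, chr6:116410077-116461178, minus strand), Alox5ap (its activating protein, chr5:149264767-149288153, plus strand), Ltc4s (leukotriene C4 synthase, chr11:50236461-50238616, minus strand) and Lta4h (leukotriene A4 hydrolase, which makes leukotriene B4, chr10:93453411-93484875, plus strand). Alox15 (12/15-lipoxygenase, chr11:70344152-70352031, minus strand) makes other hydroxylated fatty acids. The file gives Tbxas1 and Ltc4s longer loci than the annotation, beginning at 38694389 and ending at 50292311. Exons of Ptgs1, Tbxas1, Alox5ap and Ltc4s share 148, 144, 189 and 268 bases with a gene on the opposite strand, and the libraries were made with a stranded kit while the strand setting of the quantification is not given in the sources used here.

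RefSeq promoters (GRCm38.p6) were found for 8 members, all but Alox5ap and Alox15, each spanning 250 bases before to 50 after the start of transcription. The 250 bases before the start are shown for Ptgs2, higher in monocytes than in AΦ, for Alox5 and Tbxas1, higher in AΦ, and for Hpgds, higher in CD45.2 monocytes of 32-weeks. They lie at chr1:150099781-150100030 on the plus strand (Ptgs2), chr6:116461179-116461428 on the minus strand (Alox5), chr6:38918736-38918985 on the plus strand (Tbxas1) and chr6:65144731-65144980 on the minus strand (Hpgds). For Tbxas1 and Hpgds the RefSeq start lies inside the annotated gene given above, not at its 5′ end. Capitals mark GAGGAA on either strand, the core of sites of the myeloid factor PU.1, and in Ptgs2 also TTGCGCAA, a C/EBP site.
Ptgs2: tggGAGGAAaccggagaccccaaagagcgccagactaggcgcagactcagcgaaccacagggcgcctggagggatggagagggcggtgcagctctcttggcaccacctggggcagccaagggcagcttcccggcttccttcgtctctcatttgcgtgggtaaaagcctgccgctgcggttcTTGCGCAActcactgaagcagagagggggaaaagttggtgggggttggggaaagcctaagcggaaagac
Alox5: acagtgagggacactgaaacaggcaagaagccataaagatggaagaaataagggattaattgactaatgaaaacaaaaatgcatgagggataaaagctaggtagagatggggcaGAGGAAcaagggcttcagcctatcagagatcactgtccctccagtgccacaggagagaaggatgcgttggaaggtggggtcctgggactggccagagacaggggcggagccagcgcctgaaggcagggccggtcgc
Tbxas1: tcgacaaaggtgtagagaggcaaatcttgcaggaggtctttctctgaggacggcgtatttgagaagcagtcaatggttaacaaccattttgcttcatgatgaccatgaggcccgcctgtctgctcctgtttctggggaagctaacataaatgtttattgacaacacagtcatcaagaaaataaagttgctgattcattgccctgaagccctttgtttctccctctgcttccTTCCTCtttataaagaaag
Hpgds: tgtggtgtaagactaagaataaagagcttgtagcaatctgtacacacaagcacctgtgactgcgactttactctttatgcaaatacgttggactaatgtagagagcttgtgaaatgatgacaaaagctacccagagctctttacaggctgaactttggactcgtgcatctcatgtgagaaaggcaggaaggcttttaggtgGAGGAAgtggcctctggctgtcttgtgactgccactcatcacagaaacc

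GAGGAA was found in the promoters of 8 of 8 members and in 28.3% of all 32851 promoters. TTGCGCAA was found in Ptgs2 alone of the 8 and in 0.183% of all promoters. In all 13 motifs were searched on both strands. GGAA (ETS core), which GAGGAA contains, was found in all 8 members and in 96.0% of all promoters. GGGCGG (GC box) was found in 3 of 8 members, Ptgs2, Ptges and Alox5, and in 35.7% of all promoters. Found in 1 member each were CGTCA (CREB core, 20.8% of all promoters) and CACGTG (E-box, 7.15%) in Ptgs2 and the TATA box TATAAA (13.6%) in Tbxas1. None of the 8 held TTCCGG (an ETS core with a G, 14.9% of all promoters), either NF-kappaB site searched (0.155% and 0.432%), the AP-1 site TGAGTCA (5.2%), the whole CREB site TGACGTCA, of which CGTCA is a part (1.79%), or the longer TATA box TATAAAA (5.48%). A match is a string of letters, not a measured binding site.

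In AΦ the leukotriene C4 branch stood highest. Mean levels over the 18 AΦ libraries were 162.0 FPKM for Ltc4s, 98.3 FPKM for Alox5ap and 90.2 FPKM for Alox5, above 97.4%, 96.4% and 96.2% of all genes. The libraries of Alox5ap and Alox5 overlapped (SD 14.7 and 19.5 FPKM, n = 18). Tbxas1 followed at 29.5 FPKM and Lta4h at 12.98 FPKM, while Ptgs2, Ptgs1, Ptges, Hpgds and Alox15 were between 5.18 and 0.153 FPKM. In monocytes the order was different. At 4-weeks Ptgs2 led, with a mean of 270.3 FPKM against 127.2 FPKM for Alox5ap, and was the higher in 6 of 6 libraries. At 32-weeks their means were close, at 124.0 and 133.4 FPKM in CD45.1 and 119.7 and 119.8 FPKM in CD45.2 monocytes. The Ptgs2 means were raised by FA replicate 2, at 356 and 364 FPKM. Its medians were lower than those of Alox5ap, at 87.87 and 132.8 FPKM in CD45.1 and 77.85 and 122.2 FPKM in CD45.2 monocytes. Ptgs2 was the higher in 3 of 12 libraries. Over all 18 monocyte libraries Alox5, Lta4h, Tbxas1, Ltc4s and Hpgds lay between 13.8 and 4.10 FPKM, and Ptgs1, Alox15 and Ptges between 2.54 and 0.409 FPKM. In sorted bulk cells, fewer expressing cells and less RNA per cell cannot be told apart.

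**Figure D1:**
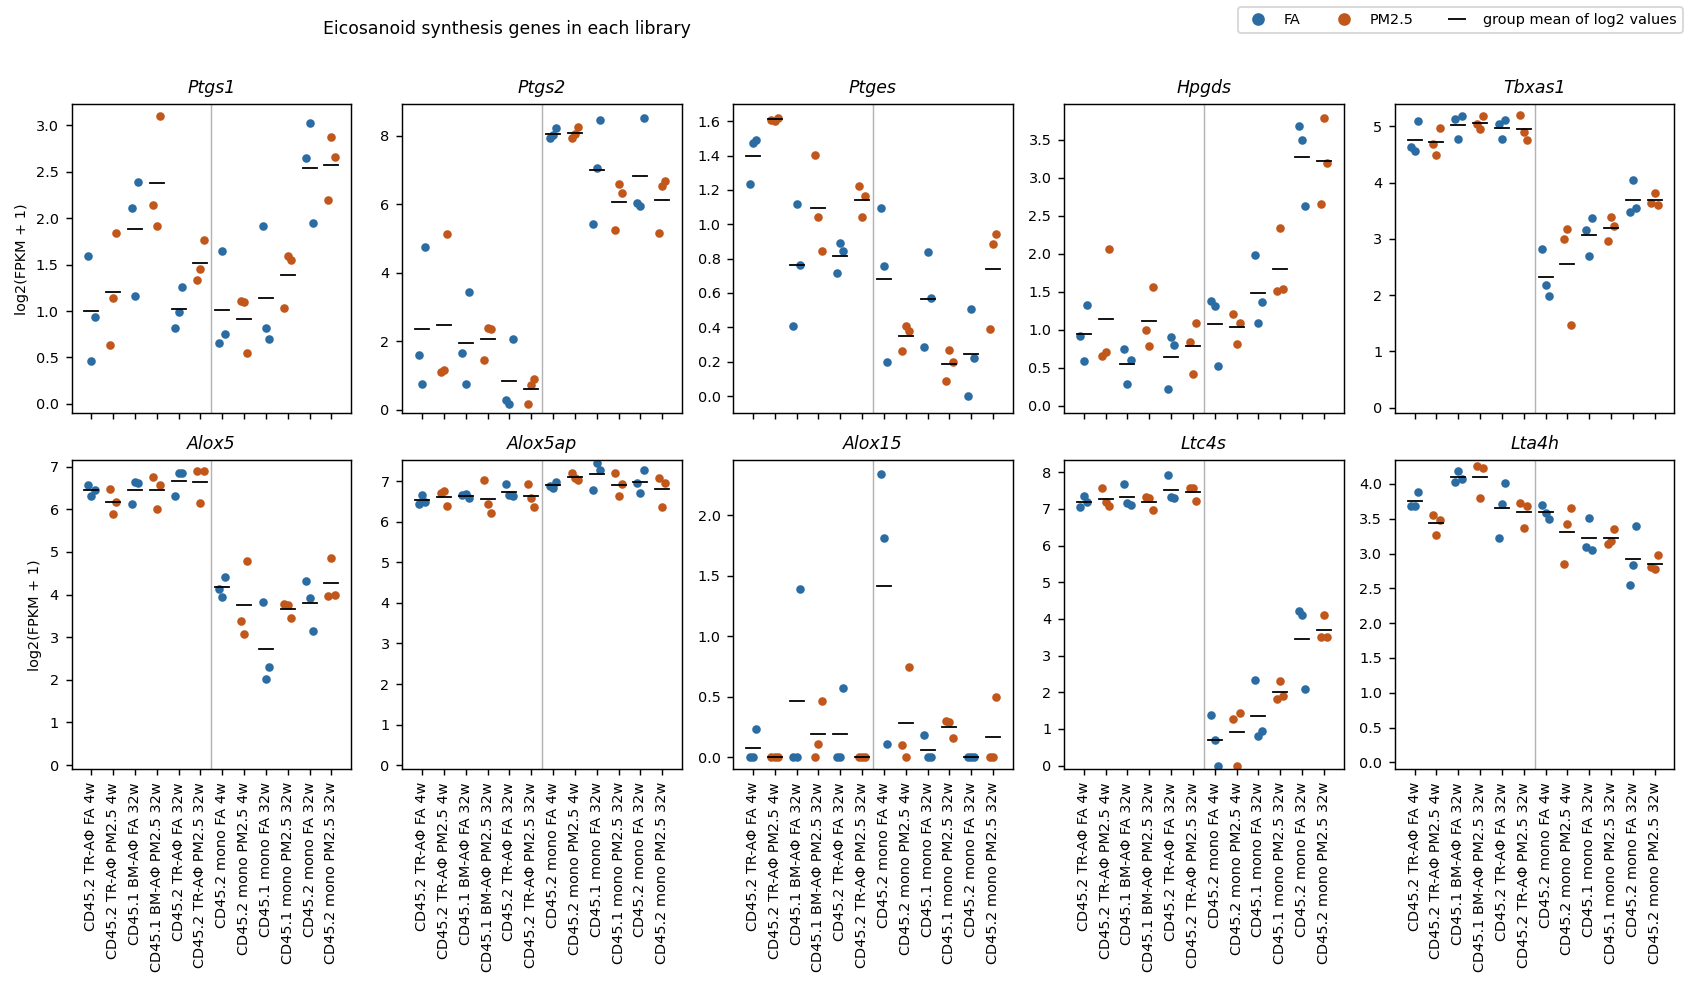
Each panel plots 1 gene, with log2(FPKM + 1) on the vertical axis and the 12 groups on the horizontal axis (6 AΦ groups left of the grey line, 6 monocyte groups right of it). Points are libraries (FA blue, PM2.5 orange) and black lines are group means of the log2 values. Ltc4s, Alox5 and Tbxas1 separate AΦ from monocytes in 1 direction and Ptgs2 in the other, and FA and PM2.5 points overlap in most groups.

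The labelled cell types were checked against their markers. The AΦ markers include Itgax, which encodes CD11c, and the monocyte markers include Itgam, which encodes CD11b. Both proteins were used in the gate, so this part of the check was set by the sort. The summed level of 15 AΦ markers was between 8150.0 and 16200.0 FPKM in AΦ libraries and between 336.0 and 1940.0 FPKM in monocyte libraries, and that of 12 monocyte markers was between 153.0 and 628.0 FPKM in AΦ and between 1380.0 and 5250.0 FPKM in monocytes. Over all genes a library's FPKM summed to between 1839577 and 3339020, and read numbers are unknown.

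AΦ and monocytes were compared with limma on log2(FPKM + 1), over 13307 genes that averaged 1 FPKM or more in 36 libraries, with FA and PM2.5 groups weighted equally. This minimum was passed by 8 members, Hpgds only through monocytes (mean 4.10 FPKM, against 0.911 FPKM in AΦ). Ptges and Alox15 did not and are given by exact tests. In CD45.2 cells at 4-weeks 5 of 8 tested members differed, 3 higher in AΦ and 2 lower, where 48.2% of all genes tested differed. In CD45.2 cells at 32-weeks 7 of 8 differed, 4 higher and 3 lower (all genes 47.3%). In CD45.1 cells at 32-weeks 8 of 8 differed, 5 higher and 3 lower (all genes 50.9%). Median log2 differences of the 8 members were 0.14, 0.26 and 0.87, beside -0.02, 0.00 and 0.03 for all genes. These 3 comparisons use different libraries, and adjusted p are Benjamini-Hochberg values over all genes tested. For genes of low FPKM the added 1 makes log2 differences too small.

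Ltc4s was at 132, 162 and 145 FPKM with FA and 190, 144 and 134 FPKM in PM2.5 exposed TR-AΦ at 4-weeks, while monocytes of 4-weeks were at 1.59 and 0.625 FPKM and listed at 0 in FA and at 1.42 and 1.71 FPKM and listed at 0 in PM2.5. The 2 cell types did not overlap, and the lowest AΦ library lay far above the highest monocyte library. The log2 difference was 6.44 ± 0.315 (SE, limma, adjusted p = 2.1e-15). At 32-weeks TR-AΦ were between 147 and 243 FPKM and CD45.2 monocytes between 3.22 and 17.5 FPKM, a log2 difference of 3.90 ± 0.315 (adjusted p = 5.67e-11). BM-AΦ were between 124 and 206 FPKM and CD45.1 monocytes between 0.765 and 4.00 FPKM, a log2 difference of 5.58 ± 0.315 (adjusted p = 4.83e-14).

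Alox5 was higher in AΦ in each of the 3 comparisons, and no AΦ library overlapped a monocyte library. In TR-AΦ at 4-weeks it was at 94.7, 79.0 and 87.3 FPKM with FA and 87.6, 58.5 and 71.5 FPKM in PM2.5, against 7.41 to 26.8 FPKM in monocytes (log2 difference 2.36 ± 0.286, limma adjusted p = 8.96e-08). At 32-weeks the differences were 2.63 ± 0.286 for CD45.2 cells (adjusted p = 1.49e-08) and 3.26 ± 0.286 for CD45.1 cells (adjusted p = 2.74e-10). BM-AΦ were between 63.8 and 108 FPKM, and CD45.1 monocytes between 3.05 and 13.2 FPKM.

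Tbxas1 was also higher in AΦ without overlap. Its mean level was 26.0 ± 4.57 FPKM (SD, n = 6) in TR-AΦ and 4.89 ± 2.51 FPKM (SD, n = 6) in monocytes at 4-weeks, a log2 difference of 2.30 ± 0.210 (limma adjusted p = 4.98e-10). At 32-weeks the log2 difference was 1.27 ± 0.210 in CD45.2 cells (adjusted p = 1.26e-05) and 1.91 ± 0.210 in CD45.1 cells (adjusted p = 1.76e-08).

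Lta4h differed at 32-weeks. Its mean level was 11.5 ± 2.44 FPKM in TR-AΦ against 6.54 ± 1.60 FPKM in CD45.2 monocytes (SD, n = 6 each, log2 difference 0.73 ± 0.147, limma adjusted p = 0.000152), and 16.2 ± 1.97 FPKM in BM-AΦ against 8.41 ± 1.19 FPKM in CD45.1 monocytes (log2 difference 0.87 ± 0.147, adjusted p = 1.55e-05). The CD45.2 groups overlapped and the CD45.1 groups did not. At 4-weeks the means were 11.2 and 10.1 FPKM, with a log2 difference of 0.14 ± 0.147 (adjusted p = 0.449) and overlapping libraries.

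Alox5ap was abundant in both cell types. It lay between 82.0 and 107 FPKM in TR-AΦ and between 112 and 146 FPKM in monocytes at 4-weeks, which did not overlap, a log2 difference of -0.43 ± 0.150 (limma adjusted p = 0.0194). With quantile normalization this difference was -0.09 (adjusted p = 0.66), and without replicate 2 of PM2.5 exposed TR-AΦ its adjusted p was 0.0567. In CD45.1 cells at 32-weeks the difference was -0.44 ± 0.150 (adjusted p = 0.0167), with overlapping libraries. It lost the call without BM-AΦ PM2.5 replicate 2 (adjusted p = 0.0629), CD45.1 monocyte FA replicate 1 (adjusted p = 0.0557) or CD45.1 monocyte PM2.5 replicate 0 (adjusted p = 0.055). In CD45.2 cells at 32-weeks it was -0.21 ± 0.150 (adjusted p = 0.268).

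Ptgs2 went the other way. In monocytes at 4-weeks it was at 246, 258 and 302 FPKM with FA and 243, 266 and 306 FPKM in PM2.5. TR-AΦ of 4-weeks were at 2.03, 0.683 and 26.2 FPKM with FA and 1.15, 1.26 and 33.9 FPKM in PM2.5. The monocyte libraries lay close together, and among TR-AΦ replicate 2 of each exposure stood above the others. The log2 difference was -5.66 ± 0.693 (limma adjusted p = 1.1e-07).

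Those libraries also stood apart in other markers. The summed level of 12 monocyte markers was 598.0 and 628.0 FPKM in replicate 2 of FA and PM2.5 exposed TR-AΦ at 4-weeks and at most 386.0 FPKM in the other 4. Interstitial macrophage markers, a list of 7 given with the monocytes, summed to 647.0 FPKM in that PM2.5 library and to 165.0 and 123.0 FPKM in the other PM2.5 libraries. The part of these markers in the Ptgs2 levels was not tested. Without the libraries numbered 2 the direction of the Ptgs2 difference was kept in each of the 3 AΦ and monocyte comparisons, and so was its call.

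At 32-weeks Ptgs2 was at 42.3, 133 and 356 FPKM with FA and 37.1, 96.0 and 79.7 FPKM in PM2.5 exposed CD45.1 monocytes. CD45.2 monocytes were at 64.6, 60.6 and 364 FPKM with FA and 35.2, 91.1 and 102 FPKM in PM2.5. In both, replicate 2 of the FA groups was far above the rest. All 6 TR-AΦ libraries of 32-weeks were between 0.117 and 3.23 FPKM and all 6 BM-AΦ libraries between 0.6996 and 9.86 FPKM, below every monocyte library. The log2 differences were -5.76 ± 0.693 for CD45.2 cells (limma adjusted p = 8.87e-08) and -4.52 ± 0.693 for CD45.1 cells (adjusted p = 4.26e-06).

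Ptgs1 and Hpgds, at low levels in both cell types, differed between AΦ and monocytes at 32-weeks. Ptgs1 was lower in TR-AΦ than in CD45.2 monocytes (log2 difference -1.29 ± 0.281, limma adjusted p = 0.000414, no overlap) and higher in BM-AΦ than in CD45.1 monocytes (0.87 ± 0.281, adjusted p = 0.0115, overlapping). The latter was 0.50 (adjusted p = 0.245) in the libraries numbered 0 and 1 alone. Hpgds was lower in AΦ in CD45.2 cells (-2.53 ± 0.266, adjusted p = 7.96e-09, no overlap) and in CD45.1 cells (-0.80 ± 0.266, adjusted p = 0.0134, overlapping). At 4-weeks the differences were 0.13 ± 0.281 for Ptgs1 and -0.01 ± 0.266 for Hpgds (adjusted p = 0.734 and 1.0).

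Ptges was between 1.35 and 2.07 FPKM in TR-AΦ and between 0.145 and 1.14 FPKM in monocytes at 4-weeks, without overlap (exact two-sided permutation test on log2(FPKM + 1), unadjusted p = 0.00216, the smallest that 6 against 6 libraries allow). At 32-weeks the groups overlapped, with unadjusted exact p = 0.0216 in CD45.2 and 0.013 in CD45.1 cells. Alox15 was listed at 0 in 21 of 36 libraries and reached 1 FPKM in 3. These were replicates 0 and 1 of FA exposed monocytes at 4-weeks, at 4.06 and 2.52 FPKM, and replicate 2 of FA exposed BM-AΦ, at 1.63 FPKM. In the same 2 monocyte libraries the summed level of 3 measured eosinophil markers was 8.18 and 3.51 FPKM, against 0.365 to 0.628 FPKM in the other 4 monocyte libraries of 4-weeks. Epx, a defining eosinophil gene, was listed at 0 in every monocyte library, and the part of these markers in the Alox15 level was not tested.

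**Figure D2:**
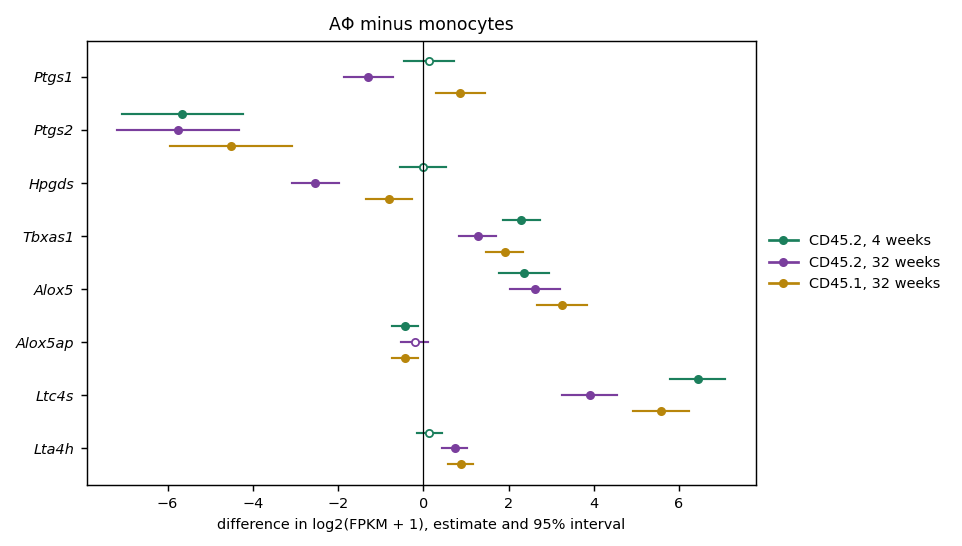
Differences in log2(FPKM + 1) between AΦ and monocytes (positive is higher in AΦ) on the horizontal axis, for 8 members on the vertical axis. Points are limma estimates and lines 95% intervals, filled points have an adjusted p under 0.05, and colours are CD45.2 cells at 4-weeks, CD45.2 cells at 32-weeks and CD45.1 cells at 32-weeks. Ltc4s, Alox5 and Tbxas1 lie to the right and Ptgs2 to the left in each of the 3 comparisons, while Ptgs1 changes side between CD45.2 and CD45.1 cells at 32-weeks.

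Of 66 other genes of the pathway (arachidonate release, other synthases, breakdown, transport and receptors), 63 had values and 33 were tested between AΦ and monocytes. At 4-weeks 13 were higher in AΦ and 8 lower, at 32-weeks 16 higher and 7 lower in CD45.2 cells, and 17 higher and 7 lower in CD45.1 cells, where 48.2%, 47.3% and 50.9% of all genes tested were called in either direction. Among 9 tested genes of arachidonate release and recapture, 6, 6 and 7 were higher in AΦ in the 3 comparisons and 0 were lower. The most raised were Mgll, which hydrolyses monoacylglycerols (log2 differences 4.76, 4.50 and 5.02), Mgst3, a glutathione transferase of the leukotriene pathway (3.74, 2.97 and 4.03), and Pla2g15, the lysosomal phospholipase (3.27, 2.44 and 2.89), with limma adjusted p of 3.99e-11 or less. The most lowered were Ltb4r1, the high-affinity leukotriene B4 receptor (-3.90, -4.08 and -3.59), and Hpgd, the dehydrogenase that breaks prostaglandins down (-3.71, -4.20 and -3.47). They were followed by Ptger4, a prostaglandin E2 receptor, at 4-weeks (-1.79 ± 0.199) and by Cysltr1, a cysteinyl leukotriene receptor, at 32-weeks (-2.27 ± 0.324 in CD45.2 and -1.997 ± 0.324 in CD45.1 cells). Of 6 tested receptors 4, 3 and 3 were lower in AΦ in the 3 comparisons. In each, 2 were higher, Ptger2 and Fpr2, the lipoxin receptor.

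BM-AΦ and TR-AΦ were compared at 32-weeks over 12665 genes, which asks whether origin marks the cells. None of the 8 tested members differed (all genes 0.316% called), and the median log2 difference was 0.02 for members and 0.02 for all genes. Unadjusted p from limma were under 0.05 for 2 of the 8 and for 944 of all 12665 genes. Lta4h was at 15.3, 17.3 and 15.9 FPKM with FA and 18.1, 12.9 and 17.8 FPKM in PM2.5 exposed BM-AΦ, against 8.30, 12.1 and 15.2 FPKM with FA and 12.3, 9.32 and 11.9 FPKM in PM2.5 exposed TR-AΦ. Most BM-AΦ libraries were higher, with some overlap, and the log2 difference was 0.48 ± 0.131 (limma adjusted p = 0.224). Ptgs1 had a median of 3.36 FPKM in BM-AΦ (range 1.24 to 7.55) and of 1.46 FPKM in TR-AΦ (range 0.763 to 2.40), a log2 difference of 0.87 ± 0.287 (adjusted p = 0.359). Markers of dendritic cells were higher in BM-AΦ. The 7 dendritic cell markers summed to between 10.5 and 32.5 FPKM in BM-AΦ and between 1.92 and 6.26 FPKM in TR-AΦ, without overlap, and the 7 interstitial macrophage markers to between 106.0 and 376.0 FPKM and between 89.4 and 167.0 FPKM, with overlap. The part of these markers was not tested. Ptgs2 differed by 1.29 ± 0.792 (adjusted p = 0.844), with a 95% interval from -0.41 to 2.99. It lies 11.9 Mb from Ptprc, the gene of CD45 that differs between hosts and donors, and whether donor sequence reaches it was not tested. Of the other pathway genes 33 were tested by limma and 0 passed, with 4 at an unadjusted p under 0.05.

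Exposure time in TR-AΦ was compared in FA and in PM2.5 exposed mice separately. None of 8 tested members differed between 32-weeks and 4-weeks in FA (all genes 0.782%) or in PM2.5 (all genes 1.05%), with median log2 differences of 0.12 and 0.17 for members and 0.01 and 0.03 for all genes. In each, limma gave an unadjusted p under 0.05 for 1 of the 8 members, Ptges. Of all 12665 genes tested, 1535 in FA and 1928 in PM2.5 had such a p. It was at 1.35, 1.78 and 1.81 FPKM at 4-weeks and 0.643, 0.858 and 0.794 FPKM at 32-weeks with FA. With PM2.5 it was at 2.05, 2.04 and 2.07 FPKM at 4-weeks and 1.33, 1.06 and 1.24 FPKM at 32-weeks. Neither pair of groups overlapped. The log2 differences were -0.58 ± 0.216 (limma adjusted p = 0.282) and -0.47 ± 0.216 (adjusted p = 0.321), so neither passed. Ptgs2 differed by -1.53 ± 1.12 and -1.87 ± 1.12 (adjusted p = 0.635 and 0.453), with replicate 2 of 4-weeks far above the others, and the PM2.5 groups did not overlap (exact two-sided permutation p = 0.1). Of 33 other pathway genes tested by limma 0 passed in either, with 5 and 6 at an unadjusted p under 0.05.

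In CD45.2 monocytes 5 of 8 tested members differed between 32-weeks and 4-weeks, 4 higher and 1 lower, where 14.9% of 12856 genes differed. The median log2 difference was 0.66 for members and -0.05 for all genes. The 4 that rose were Hpgds, Ltc4s, Ptgs1 and Tbxas1, from prostaglandin D2, leukotriene C4, cyclooxygenase and thromboxane steps.

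Hpgds was at 1.60, 1.48 and 0.436 FPKM with FA and 1.31, 0.756 and 1.12 FPKM in PM2.5 exposed monocytes at 4-weeks. At 32-weeks CD45.2 monocytes were at 11.8, 10.3 and 5.15 FPKM with FA and 5.31, 12.8 and 8.15 FPKM in PM2.5. All libraries of 32-weeks lay above all libraries of 4-weeks, and the log2 difference was 2.19 ± 0.263 (limma adjusted p = 0.000177). Ltc4s rose from at most 1.71 FPKM, with 2 libraries listed at 0, to 17.5, 16.1 and 3.22 FPKM with FA and 10.3, 16.3 and 10.3 FPKM in PM2.5, without overlap (2.79 ± 0.407, adjusted p = 0.000618). Ptgs1 rose from a range of 0.465 to 2.12 FPKM to a range of 2.85 to 7.14 FPKM (1.59 ± 0.269, adjusted p = 0.00144). Tbxas1 rose from a range of 1.75 to 8.07 FPKM to a range of 10.1 to 15.6 FPKM (1.25 ± 0.261, adjusted p = 0.00521).

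Lta4h was the member that fell, from 10.1 ± 2.10 to 6.54 ± 1.60 FPKM (SD, n = 6 each, overlapping, log2 difference -0.56 ± 0.160, limma adjusted p = 0.0288). Leaving out any of 8 of the 12 libraries ended this call (adjusted p between 0.0553 and 0.0765). It held without PM2.5 replicate 0 of 4-weeks, FA replicate 2 of 4-weeks or replicate 2 of either exposure at 32-weeks. Ptgs2 was lower at 32-weeks by 1.60 ± 0.521 on the log2 scale (adjusted p = 0.0536). Without FA replicate 2 of 32-weeks, at 364 FPKM, its difference was -2.02 (adjusted p = 0.0102).

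CD45.1 and CD45.2 monocytes were compared at 32-weeks. Of 8 tested members 2 were lower in CD45.1 monocytes and 0 were higher (all genes 0.669% called), with a median log2 difference of -0.70 for members and 0.00 for all genes. This comparison shares the CD45.2 monocytes of 32-weeks with the previous one. Hpgds was at 2.95, 1.12 and 1.57 FPKM with FA and 1.84, 4.05 and 1.89 FPKM in PM2.5 exposed CD45.1 monocytes, all below the lowest CD45.2 library, a log2 difference of -1.61 ± 0.263 (limma adjusted p = 0.0081). Ptgs1 was at 2.76, 0.761 and 0.627 FPKM with FA and 1.04, 2.01 and 1.92 FPKM in PM2.5 exposed CD45.1 monocytes, again without overlap (-1.29 ± 0.269, limma adjusted p = 0.0418). Neither passed in the libraries numbered 0 and 1 alone (Hpgds -1.68, adjusted p = 0.112, and Ptgs1 -1.35, adjusted p = 0.209). The Ptgs1 call ended when any of 9 of the 12 libraries was left out (adjusted p between 0.0674 and 0.141), all but CD45.1 FA replicate 0, CD45.2 FA replicate 2 and CD45.2 PM2.5 replicate 0.

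Ltc4s was at 4.00, 0.765 and 0.919 FPKM with FA and 2.52, 3.93 and 2.76 FPKM in PM2.5 exposed CD45.1 monocytes, which overlapped CD45.2 monocytes only through CD45.2 FA replicate 2 at 3.22 FPKM. Its log2 difference was -1.90 ± 0.407 (limma adjusted p = 0.0507), and in 1 model of all 36 libraries its adjusted p was 0.000669. Without that library it was -2.24 (adjusted p = 0.00571), and without CD45.1 FA replicate 0 it was -2.14 (adjusted p = 0.0264). Tbxas1 was between 5.46 and 9.51 FPKM in CD45.1 and between 10.1 and 15.6 FPKM in CD45.2 monocytes, without overlap, and its difference of -0.56 ± 0.261 had an adjusted p of 0.525. Ptgs2 differed by 0.05 ± 0.521 (95% interval from -1.07 to 1.16).

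**Figure D3:**
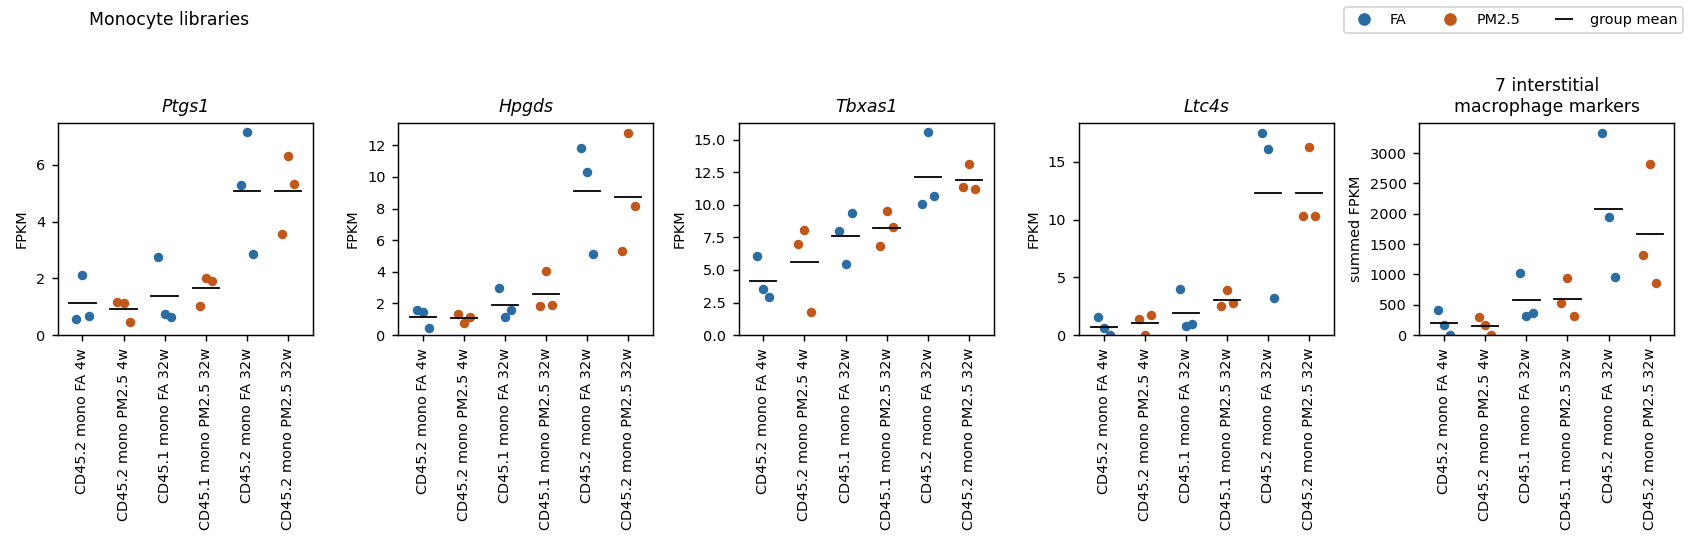
Levels in the 18 monocyte libraries, in FPKM for Ptgs1, Hpgds, Tbxas1 and Ltc4s and as the summed FPKM of 7 interstitial macrophage markers (vertical axes, from 0), by group (horizontal axes). Points are libraries (FA blue, PM2.5 orange) and lines are group means. The CD45.2 groups of 32-weeks have the highest means in all 5 panels.

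Markers of interstitial macrophages moved with these 4 genes, while the summed AΦ markers overlapped between the monocyte groups. The summed level of 7 of 7 interstitial macrophage markers (C1qa, C1qb, C1qc, Folr2, Lyve1, Cd163 and Mertk, a list chosen after values were seen) was between 3.12 and 407.0 FPKM in monocytes of 4-weeks, between 309.0 and 1030.0 FPKM in CD45.1 monocytes and between 865.0 and 3330.0 FPKM in CD45.2 monocytes of 32-weeks. Of 15 AΦ markers, 2 in each group of 4-weeks were listed at 0 in all 3 libraries and none in the CD45.2 groups of 32-weeks. Their summed level was between 454.0 and 809.0 FPKM at 4-weeks, between 336.0 and 895.0 FPKM in CD45.1 and between 507.0 and 1940.0 FPKM in CD45.2 monocytes of 32-weeks. The summed level of 11 platelet markers was between 75.1 and 291.0 FPKM in CD45.2 monocytes of 32-weeks and between 2.45 and 35.2 FPKM in the other monocytes, and within it Pf4 had a mean of 143.0 FPKM in CD45.2 monocytes of 32-weeks. Gp9 was listed at 0 in all 6 of these libraries, as it was in every library of 3 of the other 4 monocyte groups. The 12 monocyte markers summed to between 3880.0 and 5250.0 FPKM at 4-weeks and between 1380.0 and 3810.0 FPKM in CD45.2 monocytes of 32-weeks. The part of these markers in the differences was not tested.

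The other pathway genes were tested in 31 cases in monocytes. Between 32-weeks and 4-weeks 4 were higher and 3 lower in CD45.2 monocytes, where 14.9% of all genes tested were called. Pla2g2d, a secreted phospholipase, had mean levels of 0.967 FPKM at 4-weeks and 18.4 FPKM at 32-weeks (log2 difference 3.32 ± 0.409, limma adjusted p = 0.000205). Ggt5, which cleaves leukotriene C4 to D4, rose by 1.73 ± 0.306 (adjusted p = 0.00189) and Pla2g15 by 1.40 ± 0.176 (adjusted p = 0.000252). Fpr2 fell by 1.61 ± 0.286 (adjusted p = 0.00193), Cyp4f18, a leukotriene B4 hydroxylase, fell by 0.84 ± 0.154 (adjusted p = 0.00234), and Abcc4, a prostaglandin exporter, fell by 0.65 ± 0.170 (adjusted p = 0.0189). Between CD45.1 and CD45.2 monocytes Pla2g2d alone differed, lower in CD45.1 by -2.68 ± 0.409 (adjusted p = 0.00487).

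**Figure D4:**
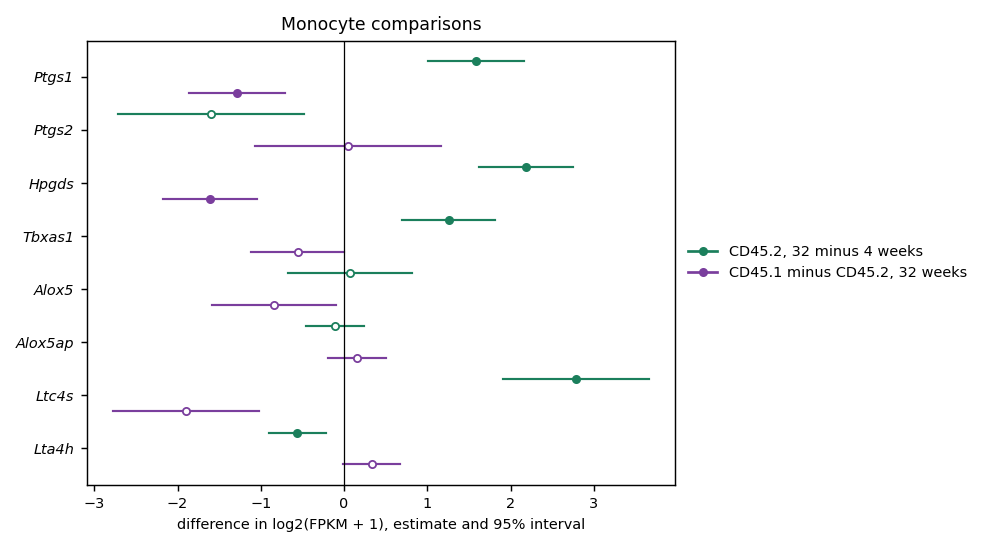
Differences in log2(FPKM + 1) in monocytes on the horizontal axis, for 8 members on the vertical axis, as 32-weeks minus 4-weeks in CD45.2 monocytes and as CD45.1 minus CD45.2 at 32-weeks. Points are limma estimates, lines 95% intervals, and filled points have an adjusted p under 0.05. Hpgds, Ltc4s, Ptgs1 and Tbxas1 lie to the right of 0 over time, and Hpgds and Ptgs1 are filled to the left of 0 between origins.

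Whether these differences belonged to monocytes was tested by the difference of differences, which uses the same libraries as the comparisons above. The change from 4-weeks to 32-weeks differed between CD45.2 AΦ and CD45.2 monocytes for 4 of 8 tested members, all lower in AΦ (all genes 7.88% called), with medians of -0.57 for members and 0.04 for all genes. These were Ltc4s (-2.54 ± 0.446, limma adjusted p = 0.000553), Hpgds (-2.52 ± 0.376, adjusted p = 9.28e-05), Ptgs1 (-1.42 ± 0.398, adjusted p = 0.0251) and Tbxas1 (-1.03 ± 0.297, adjusted p = 0.0302). Hpgds averaged 0.911 FPKM in AΦ, below the minimum, where the added 1 shrinks any change. For Hpgds the test therefore cannot tell whether the change belonged to monocytes alone. The Ptgs1 call ended without TR-AΦ of 4-weeks FA replicate 0 or PM2.5 replicate 2, or without monocyte PM2.5 replicate 2 of 4-weeks or CD45.2 monocyte PM2.5 replicate 1 of 32-weeks (adjusted p between 0.0516 and 0.0553), and in the libraries numbered 0 and 1 alone it was -1.37 (adjusted p = 0.114). With a pseudocount of 0.1 its adjusted p was 0.051. The Tbxas1 call ended without any of 8 of 24 libraries (adjusted p between 0.0528 and 0.0656), and its difference was -0.57 (adjusted p = 0.238) in the libraries numbered 0 and 1 alone. With only the groups compared its adjusted p was 0.076. Of 33 other pathway genes the change over time was more positive in AΦ than in monocytes for 4 and more negative for 2. The largest of the 4 were Fpr2 (1.11 ± 0.327), Cyp4f18 (0.98 ± 0.205) and Abcc4 (0.71 ± 0.213). The 2 were Fam213b, a prostamide synthase (-1.51 ± 0.469), and Pla2g15 (-0.83 ± 0.198). These values are not rises or falls in AΦ. Fpr2 was -1.61 over time in monocytes and -0.52 and -0.49 in FA and PM2.5 exposed TR-AΦ. Pla2g15 was 1.40 in monocytes and 0.57 in TR-AΦ of either exposure. The TR-AΦ values did not pass.

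The difference of origin, CD45.1 minus CD45.2 at 32-weeks, was more positive in AΦ than in monocytes for 2 of 8 tested members (all genes 1.08% called), with medians of 0.94 for members and 0.04 for all genes. These were Ptgs1 (2.16 ± 0.398, limma adjusted p = 0.00442) and Hpgds (1.73 ± 0.376, adjusted p = 0.0161), the latter again with AΦ levels below the minimum. In the libraries numbered 0 and 1 alone they were 2.03 (adjusted p = 0.0716) and 1.79 (adjusted p = 0.0668). With a pseudocount of 0.1 Hpgds did not pass (adjusted p = 0.0877). Ltc4s had a difference of 1.68 ± 0.446 (adjusted p = 0.0665), and it passed without CD45.1 monocyte FA replicate 0 (1.92, adjusted p = 0.0175) or without CD45.2 monocyte FA replicate 2 (2.02, adjusted p = 0.00331). Of 33 other pathway genes Pla2g2d alone differed (2.78 ± 0.659, adjusted p = 0.0323).

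PM2.5 was compared with FA in each of 6 populations, and in none of them did any of 8 tested members pass. The share of all genes called was 0.0079% in TR-AΦ at 4-weeks, 0.0% in TR-AΦ at 32-weeks and 0.0158% in BM-AΦ. In monocytes it was 0.00778% for CD45.2 cells at 4-weeks, 0.0% for CD45.2 cells at 32-weeks and 0.0% for CD45.1 cells at 32-weeks. In the same order limma gave 372, 396, 259, 272, 547 and 609 genes an unadjusted p under 0.05, and 0 members in each of the 6 comparisons. Estimates of the tested members in AΦ lay between -0.32 (Lta4h in TR-AΦ at 4-weeks) and 0.49 (Ptgs1 in BM-AΦ). In monocytes they lay between -0.93 (Ptgs2) and 0.95 (Alox5), both in CD45.1 monocytes.

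The intervals of these exposure differences varied with the gene. For Ltc4s in AΦ they ran from -0.37 to 0.54 at 4-weeks, from -0.52 to 0.39 in TR-AΦ at 32-weeks and from -0.58 to 0.33 in BM-AΦ. For Tbxas1 in AΦ they ran from -0.43 to 0.34, from -0.41 to 0.36 and from -0.36 to 0.41. For Ptgs2 they were widest, from -2.65 to 2.15 in TR-AΦ at 32-weeks and from -2.51 to 0.65 in CD45.1 monocytes, where FA libraries were at 42.3, 133 and 356 FPKM and PM2.5 libraries at 37.1, 96.0 and 79.7 FPKM.

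In 5 of 48 pairs of a tested member and a population, the FA and PM2.5 libraries did not overlap. They were 2 of 8 members in TR-AΦ at 4-weeks (all genes 5.82%), 2 of 8 in TR-AΦ at 32-weeks (5.98%) and 0 of 8 in BM-AΦ (6.44%). In monocytes they were 1 of 8 in CD45.2 cells at 4-weeks (6.57%), 0 of 8 in CD45.2 cells at 32-weeks (6.39%) and 0 of 8 in CD45.1 cells (8.89%). Ptges was higher in PM2.5 exposed TR-AΦ at 4-weeks (2.05, 2.04 and 2.07 against 1.35, 1.78 and 1.81 FPKM) and at 32-weeks (1.33, 1.06 and 1.24 against 0.643, 0.858 and 0.794 FPKM), with log2 differences of 0.21 ± 0.216 and 0.32 ± 0.216 (limma adjusted p = 1.0 each). The exact two-sided permutation p of such groups is 0.1, the smallest that 3 against 3 libraries allow. The other 3 were Lta4h in TR-AΦ at 4-weeks, Ptgs1 in TR-AΦ at 32-weeks and Alox5ap in CD45.2 monocytes at 4-weeks. Among members below the minimum, Hpgds in BM-AΦ and Ptges in CD45.1 monocytes did not overlap either. The 33 other pathway genes tested in AΦ and 31 tested in monocytes held 0 calls by limma in these 6 comparisons, and at most 1 in each had an unadjusted p under 0.05.

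**Figure D5:**
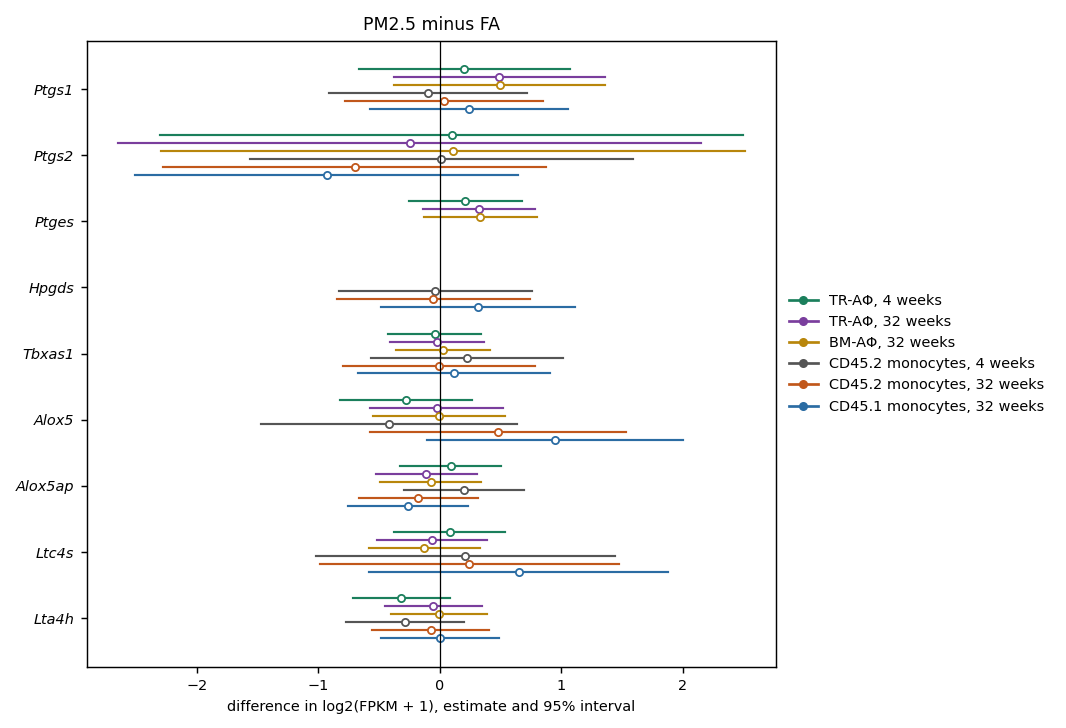
Differences in log2(FPKM + 1) between PM2.5 and FA (positive is higher in PM2.5) on the horizontal axis, for 9 members on the vertical axis and 6 populations in colours. Points are limma estimates and lines 95% intervals, and open points have an adjusted p of 0.05 or more. Every interval crosses 0, and those of Ptgs2 are the widest.

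The members were compared with each other over libraries as a description. Over 36 libraries Pearson's r of log2(FPKM + 1) was 0.919 for Alox5 and Ltc4s, 0.934 for Tbxas1 and Ltc4s and -0.919 for Ptgs2 and Ltc4s, values that carry the difference between the cell types. Within the 18 monocyte libraries r was 0.96 for Hpgds and Ltc4s, 0.929 for Ptgs1 and Hpgds and 0.88 for Ptgs1 and Ltc4s, and these carry the differences between monocyte groups. With a pseudocount of 0.1 the monocyte values were 0.924, 0.896 and 0.753 in the same order. Libraries of 1 group share time and exposure, so these points are not independent.

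The genes most like each member over 36 libraries were also listed. For Ltc4s they were Bcar3, Pald1 and Krt19 (r = 0.987, 0.986 and 0.984), for Alox5 they were Cd9, Mapk3 and Ppfibp1 (0.984, 0.977 and 0.969), and for Tbxas1 they were Axl, Camk1 and Pon3 (0.968, 0.964 and 0.963). For Ptgs2 they were Srgn, Mefv and Itgam (0.967, 0.966 and 0.963), and Itgam encodes the CD11b of the gate. For Hpgds they were Ms4a14, Ttc28 and Bmp2 (0.941, 0.937 and 0.935), for Ptgs1 Timp2, Ptrf and Fads1 (0.812, 0.808 and 0.803), for Alox5ap Ptpn1, Dhx38 and Gsr (0.823, 0.815 and 0.786), and for Lta4h Eif5a, Stx6 and Cd44 (0.807, 0.803 and 0.8). Axl is a receptor of macrophages for dying cells, and Cd9 a membrane tetraspanin.

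Within the 18 AΦ libraries the most like genes were Tnip3, Zc3h12c and Kitl for Ptgs2 (r = 0.952, 0.949 and 0.934), Ptrf, Anpep and Ccl22 for Ptgs1 (0.875, 0.836 and 0.812), and Gm43362, Rbm12b2 and Gm37949 for Ptges (0.904, 0.843 and 0.823). They were Gm12693, Slc41a3 and Mrpl18 for Tbxas1 (0.918, 0.874 and 0.85), Tns1, a gene whose symbol the file gives as a number, and Galnt3 for Alox5 (0.925, 0.919 and 0.906), and Rpl8, Prelid1 and Acvr1b for Alox5ap (0.826, 0.795 and 0.765). For Ltc4s they were Scaf1, Dhx38 and Nr2f6 (0.871, 0.856 and 0.853) and for Lta4h Rexo2, Nectin4 and Pmepa1 (0.918, 0.886 and 0.878). Tnip3 and Zc3h12c are known inhibitors of inflammatory signalling and of inflammatory mRNA.

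Within the 18 monocyte libraries Hpgds was most like Timp2, Igf1 and Olfml3 (r of 0.971 or more) and Ltc4s most like Timp2, Gna12 and Scamp5 (0.942, 0.94 and 0.937). Ptgs1 was most like Arhgap19, Sema6d and Stard8 (0.934, 0.93 and 0.918), Tbxas1 like 2510009E07Rik, Gatm and Synj2 (0.927, 0.926 and 0.914), and Ptgs2 like Ell2, Mdm2 and Il1rn (0.929, 0.926 and 0.925). Alox5 was most like Cd9, Mapk3 and Usp22 (0.958, 0.919 and 0.902), Alox5ap like Cd177, Eif3d and Emilin2 (0.891, 0.856 and 0.841), and Lta4h like Gm43312, Zfp407 and 6720482G16Rik (0.899, 0.879 and 0.877). Timp2, an inhibitor of matrix metalloproteinases, was in both the Hpgds and Ltc4s lists, and Cd9 and Mapk3 were among the most like genes of Alox5 in monocytes as over all libraries.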

How the data were processed

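RNA-seq of sorted AΦ and monocytes gave 36 libraries in 12 groups of 3. Per the labels and the study's methods, the authors trimmed the reads, aligned them to mm10 with STAR and computed FPKM per gene with Cufflinks, and these FPKM values were used here as deposited. The data hold no counts, so the depth behind a value is unknown. AΦ and monocyte libraries of 1 exposure and time may come from the same mice, and so may CD45.1 and CD45.2 libraries. The labels do not tie them together, and libraries were treated as unpaired.

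Log2(FPKM + 1) was tested with limma 3.58.1 in R 4.3.3, with 1 mean per group, a trended variance and genes averaging 1 FPKM or more across the libraries fitted (AΦ 12665, monocytes 12856, both 13307). Adjusted p are Benjamini-Hochberg values within a comparison at 0.05. Hpgds and Alox15 in AΦ, and Ptges and Alox15 otherwise, fell below the minimum and were given exact permutation tests with scipy 1.17.1. The members and gene lists were chosen with earlier results of these data known. Genes named beyond the members were the 3 per direction with the largest change among called genes of the other pathway lists, and the 3 with the highest Pearson correlation with each member. The interstitial macrophage list and the fit without libraries numbered 2 were chosen after seeing the data. The procedure was tested on simulated data. Python 3.11.15 and matplotlib 3.10.9 drew the figures. Alternatives tried were quantile normalization, a pseudocount of 0.1, all genes kept whatever their level, a fit of only the groups compared, 1 model of all 36 libraries, a replicate block and leaving out each library in turn. A few marker genes are not reported here and were left out of the summed levels.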

Additional observations from a re-analysis of the deposited data

Results flagged for a closer look

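The change between 4-weeks and 32-weeks differed between CD45.2 AΦ and CD45.2 monocytes by a test of the difference itself, in limma over 13307 genes, for Ltc4s (-2.54, adjusted p = 0.000553), Hpgds (-2.52, adjusted p = 9.28e-05), Ptgs1 (-1.42, adjusted p = 0.0251) and Tbxas1 (-1.03, adjusted p = 0.0302) on the log2 scale. The difference between CD45.1 and CD45.2 cells at 32-weeks differed between AΦ and monocytes for Ptgs1 (2.16, adjusted p = 0.00442) and Hpgds (1.73, adjusted p = 0.0161). Apart from Ltc4s and Hpgds in the first, these calls ended under another setting. In the first, Ptgs1 did not pass with a pseudocount of 0.1 (adjusted p = 0.051) nor Tbxas1 with only the groups compared (adjusted p = 0.076), and neither passed in the libraries numbered 0 and 1 alone (adjusted p = 0.114 and 0.238). In the second, neither Ptgs1 nor Hpgds passed in those libraries alone (adjusted p = 0.0716 and 0.0668), nor Hpgds with a pseudocount of 0.1 (adjusted p = 0.0877). Both rest on the CD45.2 monocytes of 32-weeks, whose interstitial macrophage markers were also raised. The part of those markers, a list chosen after values were seen, was not tested. Hpgds averaged 0.911 FPKM in AΦ, below the minimum, so its AΦ part is poorly measured in both. No group was large enough for a test of single outlying libraries.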

How the results depend on the processing

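Of 2189 member differences recomputed under other settings, 2122 kept their call, 67 did not and 0 reversed. The causes were not tested beyond what the settings themselves change, such as fewer libraries. Members called between CD45.1 and CD45.2 monocytes were 2. They were 1 with no filter on low values, a pseudocount of 0.1, only the groups compared or the replicate block, 0 in libraries numbered 0 and 1, and 1 to 3 without 1 library. In 1 model of all 36 libraries Ltc4s was called too (adjusted p = 0.000669). For the difference of origin 2 members were called, and 1 with a pseudocount of 0.1, 0 in libraries numbered 0 and 1, and 2 to 3 without 1 library. For the difference of time 4 were called, and 2 in libraries numbered 0 and 1, and 2 to 5 without 1 library.

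Counts of all genes called moved more. Between BM-AΦ and TR-AΦ 40 were called, against 62 with no filter, 78 with only the groups compared, 94 in 1 model of all 36 libraries, 22 with the replicate block, 25 in libraries numbered 0 and 1, and 15 to 54 without 1 library. Between CD45.1 and CD45.2 monocytes 86 became 149 with no filter, 359 in the model of all 36, 146 with the replicate block, 34 in libraries numbered 0 and 1, and 45 to 152 without 1 library. Over time in TR-AΦ with FA 99 became 15 with only the groups compared, 197 with the replicate block and 50 to 144 without 1 library. With PM2.5 133 became 18 with only the groups compared, 381 with the replicate block, 42 in libraries numbered 0 and 1, and 54 to 251 without 1 library. In CD45.2 monocytes 1914 became 1020 in libraries numbered 0 and 1, as 1049 became 648 for the difference of time. For the difference of origin 144 became 236 with the replicate block, 59 in libraries numbered 0 and 1, and 96 to 223 without 1 library.

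For PM2.5 against FA, TR-AΦ at 4-weeks had 1 gene called, and 9 with no filter, 3 with only the groups compared, 10 in libraries numbered 0 and 1, and 1 to 5 without 1 library. TR-AΦ at 32-weeks had 0, and 1, 5 and 0 to 3 under the last 3 of these settings. BM-AΦ had 2, and 7, 8, 6 and 2 to 4 under all 4. CD45.2 monocytes at 4-weeks had 1, and 2, 11, 6 and 1 to 4 under all 4, 2 with a pseudocount of 0.1 and 0 in the model of all 36. At 32-weeks CD45.2 monocytes had 0, and 3, 5 and 0 to 3 under the last 3, and CD45.1 monocytes had 0, and 1, 9, 7 and 0 to 5 under all 4.

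Over all genes the replicate numbers did not clearly pair the libraries. Of 66 pairs of groups 0 had a correlation of deviations above 0.1 for every number (range -0.102 to 0.209). In 14 each library correlated best with its own number, a hint from the data only. Some markers did follow the number. The summed AΦ markers rose from replicate 0 to 2 in every group but PM2.5 exposed CD45.2 monocytes of 32-weeks. In FA exposed BM-AΦ they were 9010.0, 12000.0 and 15900.0 FPKM. Markers of red cells in replicate 2 summed to 17.7 FPKM or more in each 32-weeks group and 1.31 FPKM or less in each 4-weeks group. What the numbers stand for is not known. Under the replicate block, Ptgs1 between CD45.1 and CD45.2 monocytes had an adjusted p of 0.0674, Ptgs2 over time in CD45.2 monocytes 0.011, Lta4h in the difference of time 0.045 and Ltc4s in the difference of origin 0.0201 (limma), and no other member's call changed. Of 168 correlations between members 54 moved by 0.1 or more. Precision is limited by 3 mice per group, and the depth behind levels near 1 FPKM, as of Ptges, Hpgds, Ptgs1 and Alox15, is unknown.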
